A study of Mus musculus with 2 samples.

Results

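The Mmp, Adam, Adamts and Timp genes encode the secreted and cell-surface metalloproteases of the extracellular matrix and their tissue inhibitors. They were taken from a table of nascent transcription by gene symbol: every symbol that starts with Mmp, Adam or Adamts followed by a digit, and Timp1 to Timp4. This gave 93 RefSeq entries of 79 genes, out of 24165 entries of 20128 genes. The cells were C2C12 myoblasts, an established mouse line that grows as proliferating muscle precursors and can be induced to fuse into myotubes. They were untreated and were harvested in growth medium at 80% confluency. Global run-on sequencing (GRO-seq), which labels the RNA made by polymerases already engaged on the DNA of isolated nuclei, was carried out on 2 replicate libraries, and the authors pooled both into 1 value for each entry. There was no second cell type or treatment, so every comparison here is between genes of the same cells, without replicate error and without a test.

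Gene activity was given in RPKmM, the number of reads on the sense strand of the gene body per kilobase of mappable bases, scaled to the number of reads, so that levels of different genes can be set side by side. An entry was marked active where its read density exceeded that of gene deserts in a Poisson test, at a false discovery rate below 0.01, and inactive otherwise. In such a test a long gene, with more reads at the same density, can pass at a lower density than a short gene. In the cultured cells all 8 myoblast markers were active, at 0.55 to 72.45 RPKmM, among them Myod1 at 2.39 and Des, the muscle intermediate filament, at 72.45. The 8 include Myog, which also marks the onset of differentiation, at 2.39. All 4 fibre markers were active too, at 0.06 to 1.56 RPKmM, the highest being Myh1, above 67.6% of active entries. Of the markers of other cells, 1 of 3 leukocyte, 2 of 3 endothelial, 1 of 3 epithelial and 1 of 4 testis germ cell genes were active, none above 0.02 RPKmM. Ptprc, the pan-leukocyte antigen, was inactive. The markers therefore matched the label as muscle cells, but they do not tell whether some cells had begun to differentiate. A low value in a culture can come from few cells or from little transcription in each, and the table cannot tell these apart.

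Matrix metalloproteases (Mmp) and Adamts enzymes cleave collagens, proteoglycans and other proteins outside the cell, and Adam proteins are membrane-bound proteases that release the outer domains of other surface proteins, such as growth factors. The enzymes among them are made as inactive precursors, and a zinc ion held by 3 histidines does the catalysis; some Adam proteins lack this site and act in adhesion. Timp proteins bind the active site and block it. In muscle these genes are known for remodelling the matrix during repair and for myoblast migration and fusion.

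The inhibitors and the proteases differed in level. 3 of 4 Timp genes were active, with a median of 10.72 RPKmM, while 41 of 75 protease genes were active, and the 48 active protease entries had a median of 0.195 RPKmM. Over all 4 families, 51 of 93 entries (54.8%) and 44 of 79 genes (55.7%) were active, where the whole table held 70.2% active entries and 68.7% genes with an active entry. The median of the active members was 0.24 RPKmM with quartiles of 0.025 and 1.65 (0.37 with a single entry per gene), and that of all active entries of the table was 0.87 RPKmM with quartiles of 0.22 and 1.99. At 1 RPKmM or more stood 19 member entries (20.4%), against 32.3% of the table. At 10 RPKmM or more stood 3 member entries (3.23%), against 2.03%. Below 0.1 RPKmM, yet marked active, were 18 member entries (19.4%), against 13.0%. The members thus held a smaller share of active entries and a lower median than the table, while 3 entries were above 97.3% or more of all active entries.

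**Figure D1:**
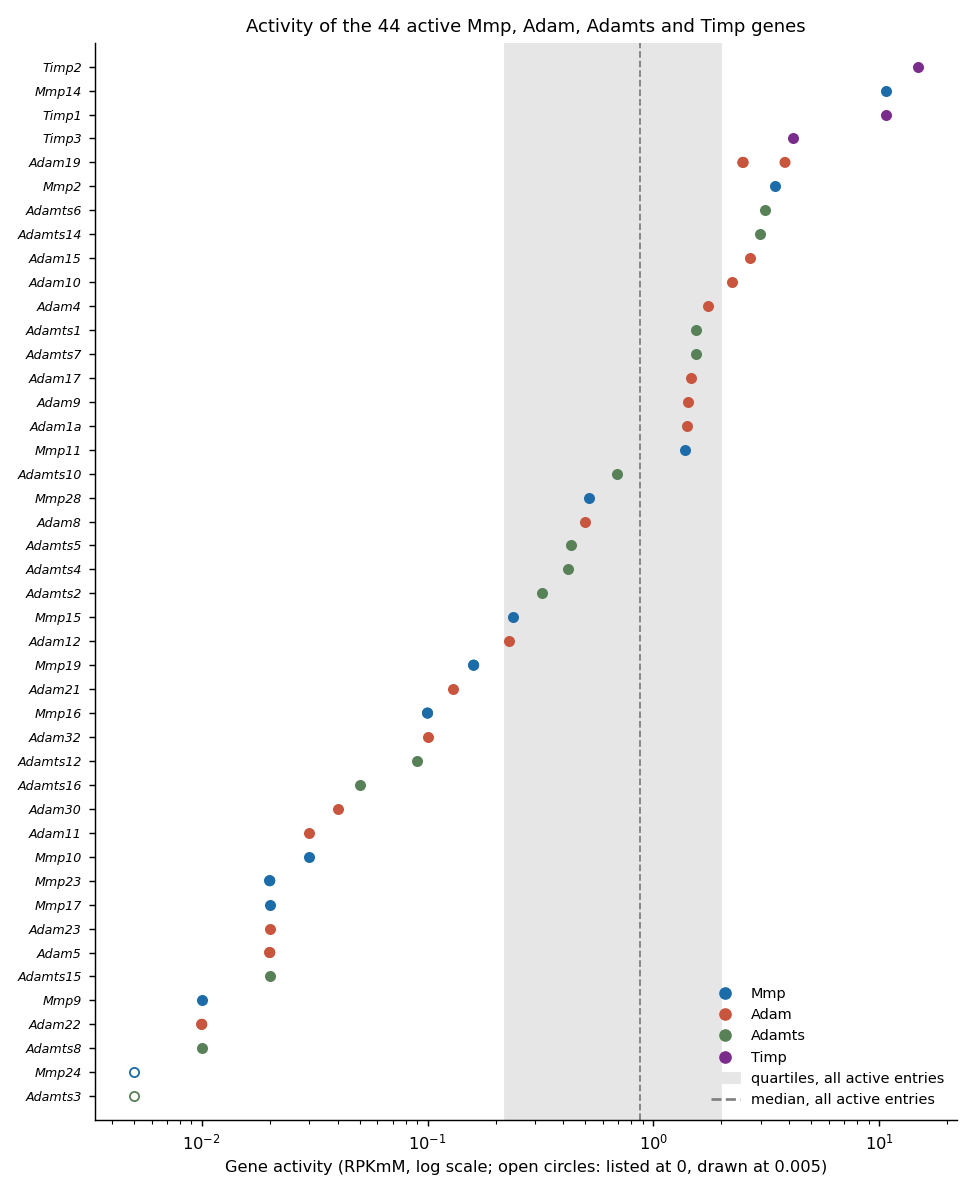
Each row is a gene with at least 1 active entry, each point a RefSeq entry, and the horizontal axis is gene activity in RPKmM on a log scale. The shaded band and the dashed line mark the quartiles (0.22 and 1.99) and the median (0.87) of all active entries; Timp2, Mmp14 and Timp1 lie beyond 10, and 2 genes listed at 0 are drawn as open circles at the left edge.

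Timp2 was the most active member at 14.9 RPKmM, above 98.3% of active entries. It lies on chromosome 11 (chr11:118162383-118217054 in mm9, minus strand) and encodes an inhibitor that also takes part in the activation of pro-Mmp2 by Mmp14 at the cell surface. Timp1 (chrX:20447292-20451861), a broad inhibitor of secreted Mmp enzymes, stood at 10.72 RPKmM, and Timp3 (chr10:85763117-85812251), which binds to the matrix and also inhibits Adam17 and several Adamts enzymes, at 4.16. Timp4 (chr6:115195634-115201867), known from heart, was inactive. The 3 active inhibitors were above 90.2% or more of all active entries. Summed over genes, with the highest entry of each, the Timp family came to 29.78 RPKmM and the 75 protease genes together to 43.73. 3 of the 4 Timp genes, all but Timp2, lie within synapsin genes on the opposite strand: Timp1 within Syn1 (0.81 RPKmM), Timp3 within Syn3 (entries at 0 and inactive) and Timp4 within Syn2 (0.02). For Timp1 and Timp3 the host gene was the lower of the pair, and reads were counted by strand.

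The stretches around the start sites of the Timp genes and of Mmp14, the most active protease, are shown because these genes stood highest and Timp4 was the exception in its family. Each runs from 110 bases before to 20 bases after the start site of RefSeq (build GRCm38.p6), 5′ to 3′ on the gene's strand, and capitals mark the GC box, GGGCGG on either strand, the letters bound by Sp1-type factors.
Timp2 (chr11:118355392-118355521, minus strand): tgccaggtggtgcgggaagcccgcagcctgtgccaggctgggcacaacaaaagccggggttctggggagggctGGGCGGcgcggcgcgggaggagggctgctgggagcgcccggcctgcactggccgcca
Timp1 (chrX:20870056-20870185, plus strand): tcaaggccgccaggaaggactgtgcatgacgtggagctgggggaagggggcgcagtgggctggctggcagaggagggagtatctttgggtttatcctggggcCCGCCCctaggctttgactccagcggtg
Timp3 (chr10:86300302-86300431, plus strand): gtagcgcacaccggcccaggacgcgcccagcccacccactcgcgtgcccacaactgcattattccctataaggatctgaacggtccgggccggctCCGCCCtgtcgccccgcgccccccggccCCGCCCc
Mmp14 (chr14:54431488-54431617, plus strand): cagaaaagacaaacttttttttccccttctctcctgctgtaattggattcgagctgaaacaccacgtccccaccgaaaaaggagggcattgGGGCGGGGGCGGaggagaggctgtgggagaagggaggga
Timp4 (chr6:115252186-115252315, minus strand): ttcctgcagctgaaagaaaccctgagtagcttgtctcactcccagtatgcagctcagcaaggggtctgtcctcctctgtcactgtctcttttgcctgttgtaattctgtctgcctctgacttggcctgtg

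In the 300-base promoters these stretches come from, Timp3 and Mmp14 held 2 GC boxes each, Timp1 and Timp2 held 1 each and Timp4 held 0, while 35.7% of all 32851 promoters of the RefSeq table hold at least 1. The CpG dinucleotides numbered 25 for Timp2, 24 for Timp3, 10 for Mmp14, 8 for Timp1 and 2 for Timp4, with a median of 7 over all promoters. Other members, named as examples, went both ways. Adamts14 (2.97 RPKmM) held 7 GC boxes and 44 CpG, and inactive Adamts20 held 3 and 41. Mmp24, listed at 0, held 3 and 44, and Adam1a (1.41) held 0 and 4. The letters are a description and say nothing about which factors were bound.

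Among the 23 Mmp genes, 12 were active, with 15 of 28 entries (53.6%, against 70.2% of the table), a median of 0.1 RPKmM and a range from 0 to 10.73. The family's activity was concentrated in a single gene. Mmp14 (chr14:55050441-55060095), the membrane-type enzyme that cleaves fibrillar collagen and activates pro-Mmp2, reached 10.73 RPKmM, above 97.4% of active entries. Mmp2 (chr8:95351227-95377316), gelatinase A, followed at 3.45, and Mmp11, a stromelysin activated inside the cell, at 1.38. The remaining active Mmp genes were at or below 0.52 RPKmM, the value of Mmp28, an Mmp known from skin and lung.

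The Mmp subfamilies differed in their calls. None of the 4 collagenases (Mmp1a, Mmp1b, Mmp8, Mmp13) was active, nor was matrilysin (Mmp7) or metalloelastase (Mmp12). Both gelatinases were active, but Mmp9, gelatinase B, was listed at 0.01 RPKmM, the smallest step of the table. Of 3 stromelysins, Mmp11 was active at 1.38 and Mmp10 at 0.03, and Mmp3 was inactive. The 4 transmembrane membrane-type enzymes were all active: Mmp14 at 10.73, Mmp15 at 0.24, Mmp16 at 0.1 in both entries, and Mmp24 at 0, which means active with a density rounded down. Of the GPI-anchored types Mmp17 stood at 0.02 and Mmp25 was inactive. Of the 6 other Mmp genes, Mmp28, Mmp19 (0.16 in both entries) and Mmp23 (0.02 in both) were active, and Mmp20, Mmp21 and Mmp27 were not.

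**Figure D2:**
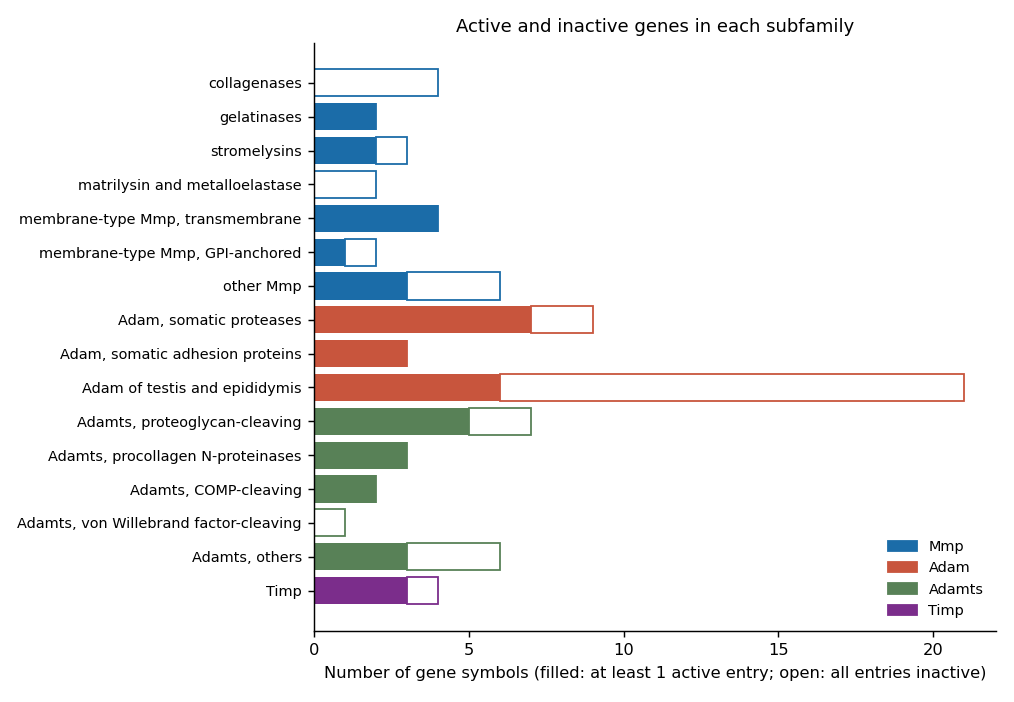
Bars give the number of genes in each subfamily, filled for genes with at least 1 active entry and open for genes with inactive entries only, coloured by family. The collagenases have 0 of 4 active genes and the transmembrane membrane-type Mmp genes 4 of 4; the longest open bar is that of the testis and epididymis Adam genes, with 6 of 21 active.

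10 of the 23 Mmp genes lie next to each other on chromosome 9 (chr9:7272514-7699585 in mm9, a span of 0.427 Mb). Only Mmp10 among them was active, at 0.03 RPKmM, so that 9 of the 11 inactive Mmp genes were in this run. The genes on either side were active: Dync2h1 at 0.33 and Dcun1d5 at 4.41 on the proximal side, Tmem123 at 1.08 and Birc2 at 0.95 on the distal side. Outside the run, 11 of 13 Mmp genes were active. Within it, AV064505, an inactive gene, overlaps Mmp20 and Mmp7 on the opposite strand.

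Promoters of the run are shown for the 8 genes in which an AP-1 motif (TGANTCA, its own reverse complement but for the middle base) and the TATA letters (TATAAA, either strand) were found in the same promoter. They run from 110 bases before to 20 bases after the RefSeq start site (GRCm38.p6), 5′ to 3′ on the gene's strand, with both motifs in capitals; the matches do not overlap. AP-1 is the Fos and Jun factor known to induce many of these genes. Its usual site has C or G in the middle, and Mmp20 is included only through an A (TGAATCA).
Mmp13 (chr9:7272404-7272533, plus strand): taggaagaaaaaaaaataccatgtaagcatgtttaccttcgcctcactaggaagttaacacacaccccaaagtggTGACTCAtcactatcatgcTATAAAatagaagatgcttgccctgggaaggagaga
Mmp12 (chr9:7347264-7347393, plus strand): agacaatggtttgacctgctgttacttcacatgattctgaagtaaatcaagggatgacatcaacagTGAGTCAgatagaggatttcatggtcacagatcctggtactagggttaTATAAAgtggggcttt
Mmp1b (chr9:7388007-7388136, minus strand): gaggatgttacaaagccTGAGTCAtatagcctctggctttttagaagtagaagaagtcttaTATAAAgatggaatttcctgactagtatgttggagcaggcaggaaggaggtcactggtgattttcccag
Mmp3 (chr9:7445712-7445841, plus strand): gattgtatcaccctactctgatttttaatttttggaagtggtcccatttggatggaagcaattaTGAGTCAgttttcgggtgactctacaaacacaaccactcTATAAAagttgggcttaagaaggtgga
Mmp1a (chr9:7464031-7464160, plus strand): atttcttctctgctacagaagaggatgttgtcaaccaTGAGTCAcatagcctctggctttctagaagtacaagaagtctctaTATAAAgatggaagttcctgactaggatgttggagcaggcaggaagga
Mmp10 (chr9:7502232-7502361, plus strand): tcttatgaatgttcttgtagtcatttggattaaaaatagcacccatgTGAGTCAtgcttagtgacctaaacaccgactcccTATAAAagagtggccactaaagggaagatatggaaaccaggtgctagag
Mmp20 (chr9:7628121-7628250, plus strand): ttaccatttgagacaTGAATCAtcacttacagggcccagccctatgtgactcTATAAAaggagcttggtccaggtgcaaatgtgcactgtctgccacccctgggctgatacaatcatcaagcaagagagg
Mmp7 (chr9:7691980-7692109, plus strand): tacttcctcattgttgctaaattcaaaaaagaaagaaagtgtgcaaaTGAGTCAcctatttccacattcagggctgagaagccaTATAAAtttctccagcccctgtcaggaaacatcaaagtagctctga

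The table holds 12 promoters for the 10 genes. An AP-1 motif, with any middle base, was found in 8 of the 12 promoters, against 7.81% of all promoters of the same length. TATAAA was found in 9 of the 12, against 13.6%. Both together were in 8 of the 12, against 1.54% of all promoters. A GC box was in none of them, and 11 of the 12 promoters held 4 CpG or fewer. Mmp10, the active gene, carried its AP-1 motif at position -63 and the TATA letters at -29 counted from the annotated start site, and the inactive Mmp1a carried them at -73 and -28. In the other genes of the run the TATA letters nearest the start lay from -58 in Mmp20 and -49 in Mmp1b to -16 in Mmp13, -7 in Mmp3 and, after the start, 5 in Mmp12, so not all lay where a TATA box usually does. The presence of these letters did not separate the active gene from its neighbours. Mmp8 held the TATA letters but no AP-1 motif, and Mmp27 held neither. These genes share ancestry by duplication, so their promoters are not independent of each other.

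**Figure D3:**
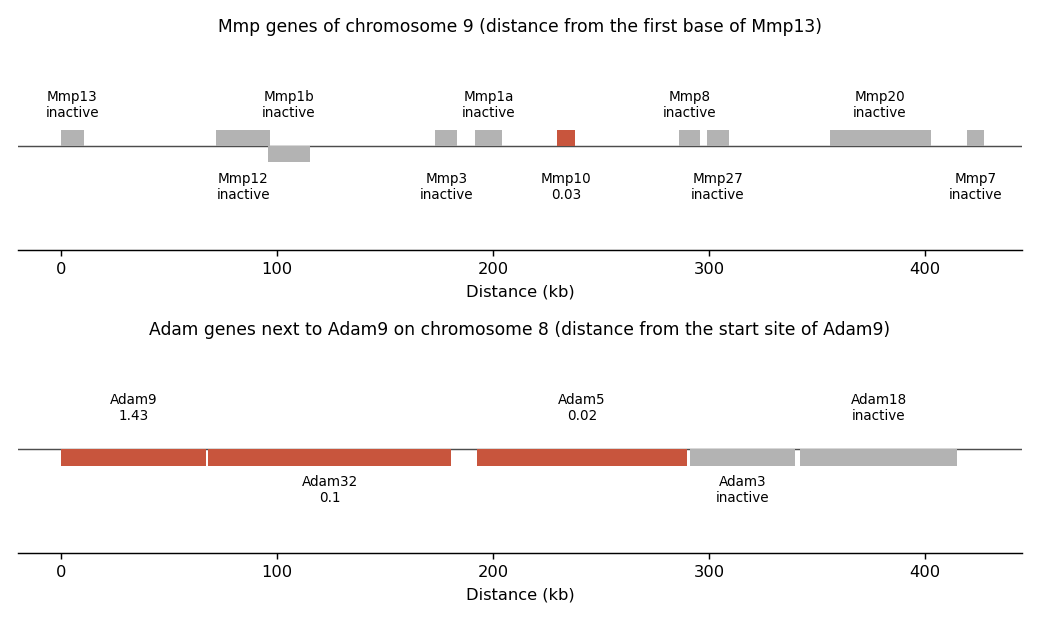
Boxes are genes along the chromosome in kb, above the line for the plus strand and below it for the minus strand, red where active (activity in RPKmM under the name) and grey where inactive. In the upper map Mmp10 at 0.03 is the only active Mmp of chromosome 9; in the lower map activity goes from 1.43 at Adam9 to 0.1 at Adam32 and 0.02 at Adam5, and the next 2 genes are inactive.

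Among the 33 Adam genes, 16 were active, with 20 of 39 entries (51.3%, against 70.2% of the table), a median of 0.365 RPKmM and a range from 0.01 to 3.83. Without the noncoding entry of Adam17 the median was 0.23. The Adam genes are given by known role. Of the 9 somatic genes with protease activity, 7 were active (77.8%, near the 68.7% of genes in the table), with a median of 2.22 RPKmM over 9 active entries; Adam19 supplies 3 of these, and with only the highest entry of each gene, chosen after the values were seen, the median was 1.47. The 3 somatic adhesion proteins without protease activity were all active but low, with Adam11 at 0.03, Adam23 at 0.02 and Adam22 at 0.01 in both entries. Of the 21 genes known mainly from testis and epididymis, 6 were active (28.6%), with a median of 0.1 RPKmM.

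Adam19 (chr11:45868004-45960845), meltrin beta, was the most active Adam gene at 3.83 RPKmM in its highest entry. Adam15, a disintegrin-protease of adhesion sites, stood at 2.67 and Adam10 (chr9:70526804-70628036), the main sheddase of Notch receptors and cadherins, at 2.22. Adam17 (chr12:21329370-21379493), the sheddase of tumour necrosis factor and ErbB ligands, stood at 1.47, in a single entry that RefSeq classed as noncoding. Adam9, meltrin gamma, stood at 1.43 and Adam8 at 0.5. Adam12 (chr7:141074882-141423829), meltrin alpha, which is known from myoblast fusion, was lower at 0.23 RPKmM, with 25.2% of active entries below it. The 3 meltrins therefore spanned from 0.23 to 3.83 RPKmM. Adam28 and Adam33 were inactive.

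Of the testis and epididymis genes, Adam4 stood at 1.75 RPKmM, Adam1a at 1.41, Adam21 at 0.13, Adam32 at 0.1, Adam30 at 0.04 and Adam5 at 0.02 in both entries. Several of these lie on or just after more active genes of the same strand, and the part of this in their values was not tested. Adam4, a gene of 2.5 kb, lies within the annotated spans of Cox16 (3.79 RPKmM) and Synj2bp (1.55) on the same strand. Adam1a overlaps Mapkapk5 (1.95) on the same strand. Adam21 starts 5.08 kb after the end of Med6 (2.39), and Adam32 starts 0.806 kb after the end of Adam9 (1.43). The testis germ cell markers Ddx4, Dazl and Acr were inactive and Sycp3 stood at 0.02 RPKmM.

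Adam9, Adam32, Adam5, Adam3 and Adam18 follow each other on the minus strand of chromosome 8. Activity along this run was 1.43, 0.1 and 0.02 RPKmM for the first 3 genes, and the last 2 were inactive. Measured from the start site of Adam9, Adam32 covered 68.1 to 181 kb, Adam5 193 to 290 kb, Adam3 291 to 340 kb and Adam18 342 to 415 kb. Of the 12 Adam genes with an mm9 position on this chromosome these 3 were the active ones; Adam20, inactive, had no such position and lies on chromosome 8 in GRCm38.p6.

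Among the 19 Adamts genes, 13 were active (68.4%, against 68.7% of genes in the table), with 13 of 22 entries (59.1%, against 70.2%). The active entries ranged from 0 to 3.12 RPKmM with a median of 0.42; their geometric mean was lower, at 0.257 with a pseudocount of 0.01 and 0.201 with 0.001. Adamts6 (chr13:105077953-105284843) was highest at 3.12 RPKmM. Next came Adamts14 (chr10:60659860-60736186), a procollagen N-proteinase, at 2.97, and then Adamts1 at 1.55 and Adamts7 at 1.54, a proteoglycan-cleaving enzyme and an enzyme of cartilage oligomeric matrix protein (COMP).

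By role, 5 of 7 proteoglycan-cleaving Adamts genes were active, with a median of 0.42 RPKmM: Adamts1 at 1.55, Adamts5 at 0.43, Adamts4 at 0.42, Adamts15 at 0.02 and Adamts8 at 0.01, while Adamts9 and Adamts20 were inactive. Adamts4 and Adamts5, the best known aggrecanases, were thus at nearly the same level. All 3 procollagen N-proteinases were active but far apart, with Adamts14 at 2.97, Adamts2 at 0.32 and Adamts3 listed at 0. Of the COMP-cleaving enzymes Adamts7 stood at 1.54 and Adamts12 at 0.09. Adamts13, which cleaves von Willebrand factor, was inactive in both entries. Of the 6 others Adamts6, Adamts10 (0.69) and Adamts16 (0.05) were active, and Adamts17, Adamts18 and Adamts19 were not.

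The zinc-binding site was compared with activity in the protease families. The pattern, called the site here, is a run of 11 residues with the 3 zinc-binding histidines, a glutamate and a glycine at fixed places, and it was searched in the translation of the longest coding transcript of each gene. Of all 22594 coding genes, 69 held it (0.305%). The coding stretches of the most active genes that hold the site are shown for each family, 5′ to 3′ on the gene's strand, with the codons of the 5 fixed residues in capitals.
Mmp14, from residue 239: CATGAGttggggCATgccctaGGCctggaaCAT
Mmp2, from residue 403: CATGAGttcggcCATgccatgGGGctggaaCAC
Adam19, from residue 346: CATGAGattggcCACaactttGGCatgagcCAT
Adam15, from residue 349: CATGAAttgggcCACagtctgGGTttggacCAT
Adam10, from residue 384: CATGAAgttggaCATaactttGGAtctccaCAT
Adam17, from residue 424: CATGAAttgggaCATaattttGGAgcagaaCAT
Adamts6, from residue 403: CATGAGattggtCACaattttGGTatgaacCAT
Adamts14, from residue 388: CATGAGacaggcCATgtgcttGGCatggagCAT

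All 23 Mmp genes and 13 of 19 Adamts genes held the site of 11 residues. The other 6 Adamts genes (Adamts1, Adamts4, Adamts8, Adamts9, Adamts15 and Adamts20), all proteoglycan-cleaving members, kept the glutamate and all 3 histidines at these places and differed from the pattern by another residue in place of the glycine. Of these, 4 were active (66.7%), against 9 of the 13 with the glycine (69.2%), both near the 68.7% of genes in the table. Among 32 Adam genes with a coding transcript, 19 held the site and 13 did not; these 13 lacked the arrangement of 3 histidines as well. Of those with it 10 were active, with a median of 1.42 RPKmM, and 6 of them stood at 1 RPKmM or more. Of those without it 6 were active, with a median of 0.025 RPKmM, and Adam4 was the only one at 1 or more. The share of active entries was close, at 12 of 23 (52.2%) with the site and 8 of 15 (53.3%) without, both below the 70.2% of the table. Counted by gene the order turned, at 52.6% with the site and 46.2% without, so no direction is read from the calls.

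Of 11 member genes with several entries, none had both an active and an inactive entry. In 5 of the 6 active ones the entries were equal to 0.01 RPKmM or better. Adam19 was the exception, at 3.83, 2.5 and 2.49 RPKmM in its 3 entries, a ratio of 1.54. Entries of a gene share most of their gene body and are not independent measurements.

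Active members were longer than inactive ones in the Mmp and Adam families, where the call itself can depend on length. The active genes listed at 0 RPKmM were Adamts3 (209 kb) and Mmp24 (43.0 kb). Those at 0.01 were Adam22 (296 kb), Adamts8 (21.3 kb) and Mmp9 (15.1 kb), so both long and shorter genes were called at these levels. An effect of length on the calls was not tested. The median gene length was 18.5 kb for the 12 active against 10.8 kb for the 11 inactive Mmp genes, and 58.7 kb against 10.8 kb for the Adam genes. In the Adamts family it ran the other way, at 45.1 kb for the 13 active and 183 kb for the 6 inactive genes. Across the 44 active members, which are not independent replicates, Spearman's rho between length and activity was -0.12, against -0.03 over 12499 active genes of the table. Neighbouring genes were also counted. Of the 44 active members, 8 began within 10 kb after the end of a gene on the same strand, and all 8 of these upstream genes were active, 5 at a higher level than the member. Over all active genes of the table with such a neighbour, 85.7% of the neighbours were active and 49.0% were higher. Of the 34 inactive members with a position, 7 had such a neighbour, and 2 of the neighbours were active, against 46.3% for the inactive genes of the table. Such a neighbour was found for 20.0% of active and 11.4% of inactive genes of the table that have a position. Of the 7 neighbours of inactive members, 4 were members of the same gene runs (Adam3, Adam5, Mmp3 and Mmp8). The most active members of the first kind were Mmp14, which starts 1.85 kb after Mrpl52 (9.39 RPKmM), and Timp1, which starts 9.65 kb after Araf (12.91). Timp2 overlaps BC100451 (3.16) on the same strand, and Mmp11 overlaps Gm867 (0.29). How far reads past the end of a neighbour enter these values was not tested.

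The genes that act on the same proteases were read from lists of their activators, partners, inhibitors and substrates. Of all genes in the table, 68.7% had an active entry. The convertases (57.1%) and the plasminogen genes (66.7%) were below or near that share, so their counts are no result about them. Proprotein convertases remove the propeptide of Adam, Adamts and membrane-type Mmp proteins, and 4 of 7 were active, with Furin at 7.24 and 6.39 RPKmM in its entries, Pcsk7 at 0.87, Pcsk4 at 0.12 and Pcsk6 at 0.02. In the plasminogen system, which activates secreted Mmp precursors, 4 of 6 genes were active: Plau, urokinase, at 15.27, its receptor Plaur at 5, Plat, the tissue-type activator, at 1.16 and Serpine2 at 0.08. Plasminogen itself (Plg) and its inhibitor Serpinf2, both known from liver, were inactive. Bsg, which induces Mmp production in neighbouring cells, was at 25.16 RPKmM, Reck, a membrane-anchored Mmp inhibitor, at 0.2, and A2m and Tfpi2 were inactive. Furin thus lay between Timp3 (4.16) and Timp1 (10.72), and Plau just above Timp2 (14.9).

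Of 8 partners of Adam10 and Adam17, 7 were active (87.5%, against 68.7% of genes in the table). The tetraspanins that guide Adam10 out of the endoplasmic reticulum stood at 3.55 and 2.98 (Tspan14), 3.49 (Tspan5), 2.19 (Tspan17), 2.1 (Tspan15) and 0.06 RPKmM (Tspan33), and Tspan10 was inactive. Rhbdf1, an iRhom that carries Adam17 to the cell surface, stood at 1.07 and Rhbdf2 at 0.38 and 0.35. All 7 ErbB ligands on the list, which are released by these sheddases, were active and all were below 1 RPKmM, from Areg at 0.95, Hbegf at 0.57, Nrg1 at 0.34, Ereg at 0.29 and Btc at 0.12 to Epgn at 0.03 and Tgfa at 0.01. Each ligand was lower than Adam10 and Adam17.

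Adamtsl proteins resemble Adamts enzymes without the protease domain. Of 6 such genes with papilin, 5 were active (83.3%, against 68.7% of genes in the table). Adamtsl5 stood at 8.32 RPKmM, above every Adamts gene, Adamtsl4 at 0.26, Adamtsl3 at 0.19, Adamtsl1 at 0.03 and Adamtsl2 at 0.01. Of 12 matrix substrates 6 were active (50%, below the 68.7% of genes in the table). The active ones were high: Fn1 at 66.28, Col3a1 at 47.8, Thbs1 at 44.83, Col1a2 at 28.94, Col1a1 at 9.29 and Vcan at 6.09 and 2.92. The substrates of cartilage, brain and blood (Acan, Bcan, Ncan, Col2a1, Comp and Vwf) were inactive. Adamts7 and Adamts4 were active in cells in which Comp and Acan were not, while other listed substrates, such as Vcan and Thbs1, were. Adamts14 was active in cells with active fibrillar collagen genes.

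**Figure D4:**
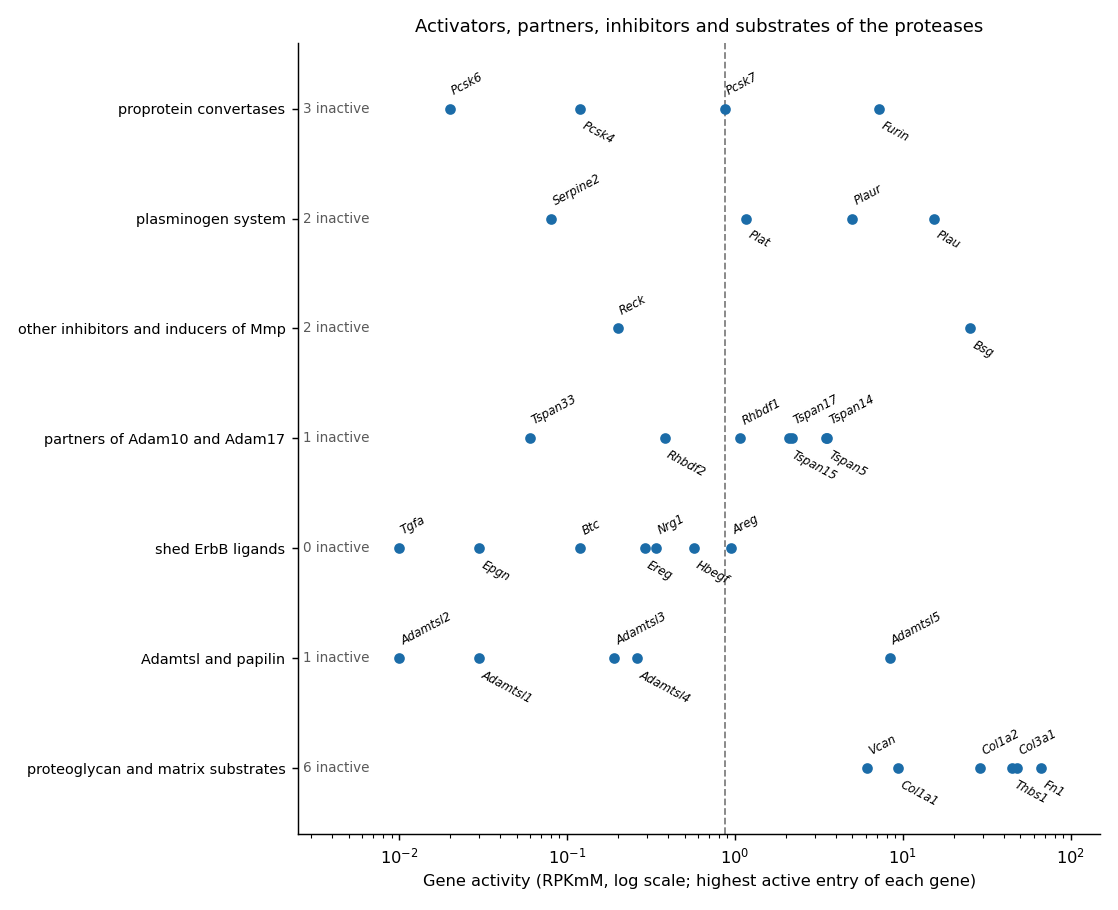
Each point is an active gene of a list, at its highest entry, on a log axis of gene activity in RPKmM, with the number of inactive genes at the left and a dashed line at the median of all active entries (0.87). The active matrix substrates lie between 6.09 and 66.28, and 6 of the 7 ErbB ligands lie left of the line, with Areg at 0.95 just to its right.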

How the data were processed

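GRO-seq of 2 replicate libraries of untreated C2C12 myoblasts was used. The authors mapped reads to mm9 with Bowtie2 (CASAVA 1.8 is named in the submitters' processing notes), kept uniquely mapped reads, dropped reads at rRNA and tRNA repeats, pooled both libraries and deposited RPKmM, an RPKM per mappable base, from 1 kb after the start site to the end of genes of at least 2 kb. The deposited activity calls were used as given. The values keep 2 decimals, so the least active genes share steps of 0.01. The table gives no read totals, so no counting interval was computed. Repeats left out and reads running on from neighbours can shift single genes.

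Members were chosen by symbol; members and lists were chosen with earlier results of these data known. The 5 most active entries, the least active of each family and genes whose entries disagree were named, with every active member open to naming. Positions came from GENCODE vM1 on mm9 (78 of 79 genes, without Adam20, which did not match). Promoters came from the RefSeq table of GRCm38.p6 (49 of 79 genes, 62.0%), too few for a check over the family. The chromosome 9 run, the Timp genes and Mmp14 were therefore described, with a few other promoters as examples. Zinc sites were searched after translating GENCODE coding transcripts. Counts, medians, quartiles and Spearman correlations were computed with pandas 2.3.3 and scipy 1.17.1. Active shares, medians and the search for the zinc site were tested on simulated data, and the other measures were not. No test between genes was run. Comparisons of neighbours, gene runs and promoters were chosen after values were seen. 1 gene of a companion list is not reported here.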

Additional observations from a re-analysis of the deposited data

How the results depend on the processing

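In 96 alternative settings over 15 shares, medians and differences, the active share of entries ranged from 47.4% to 53.6% for Mmp, 48.5% to 61.5% for Adam and 54.5% to 68.4% for Adamts; with so few entries these ranges say little about stability. With a single entry per gene, by either choice of entry, the median of active members was 0.37 RPKmM in place of 0.24. The difference in active share between Adam genes with and without the zinc-binding site turned from -1.16 to 6.48 percentage points. Genes with several entries (Adam19 and Adam28 with the site, Adam5 and Adam22 without) then count as 1 entry each. The share of active entries in the table, 70.2% as reported, was 68.7% and 68.5% with a single entry per gene (highest, lowest RefSeq number), 73.2% for protein-coding entries, 73.0% for autosomal genes with a position, 69.5% when active required 0.01 RPKmM or more, and 76.3% for entries of at least 10 kb. The difference in active share between proteases and the table was -16.2 points and ranged from -20.3 to -13.8. The Adam median was 0.23 RPKmM for protein-coding entries, in place of 0.365, because Adam17 then drops out. With a geometric mean, the centre of the Adamts genes was 0.257 (pseudocount 0.01) and 0.201 (0.001) in place of 0.42, and that of all active entries was 0.561 (0.001) in place of 0.87. Among the Timp genes of at least 10 kb, 2 in number, 100% were active. The wider promoter window that had been planned was not run, since no genome of the promoter build was used here. No paired analysis was possible because the table holds 1 pooled value for each entry, and for the same reason no library could be left out. The median of the somatic Adam proteases by gene (1.47 in place of 2.22 RPKmM) was added after seeing the data.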

Other observations

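Other zinc metalloproteases of the same clan were read after the values of the members had been seen. Of 9 genes (Bmp1, Tll1, Tll2, Mep1a, Mep1b, Astl, Pappa, Pappa2 and Adamdec1), 4 were active (44.4%, against 68.7% of genes in the table). Bmp1, the procollagen C-proteinase, stood at 4.67 RPKmM, above 91.6% of active entries and above Adamts14, which removes the other end of procollagen. Pappa, a protease of insulin-like growth factor binding proteins, stood at 0.09, Tll1 at 0.04 and Astl, an egg protease, at 0.01 in both entries. Meprins (Mep1a, Mep1b), Tll2, Pappa2 and Adamdec1 were inactive.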
